A study of Mus musculus with 2 samples.

Results

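The SMAD family and the BMP receptors were examined in cultured rib chondrocytes, the cartilage-forming cells of the rib, by taking every probe set whose only gene symbol was Smad1, Smad2, Smad3, Smad4, Smad5, Smad6, Smad7, Bmpr1a, Bmpr1b or Bmpr2. All 10 genes were found among the 18193 genes with a symbol of their own on the array, and 29 probe sets measured them. The study hybridised 1 Affymetrix mouse array with RNA of a wild-type culture and 1 with RNA of a culture lacking miR-140, to search for messenger RNAs that this cartilage microRNA may repress. Both cultures came from mice labelled as C57BL/6 and CBA and aged 5 days, and neither received a treatment that the labels name. The allele, the number of animals per culture and their sex are not given in the sources used here, and sex-linked transcripts differed between the arrays. With 1 array per group there is no spread between cultures and no test, so each value below describes this pair of arrays.

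Bone morphogenetic proteins (BMPs) and the related TGF-beta proteins signal through pairs of type I and type II receptor kinases. The type II receptor activates the type I receptor, which then phosphorylates a receptor-regulated SMAD in the cytoplasm. Smad1 and Smad5 serve the BMP branch and Smad2 and Smad3 the TGF-beta and activin branch. Each pairs with the common partner Smad4 and enters the nucleus, while Smad6 and Smad7 are inhibitory SMADs that damp the signal. In cartilage, BMP signalling is needed to form chondrocytes and drive their growth, and Smad3 holds back their terminal maturation. Smad3 has also been proposed as a direct target of miR-140.

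The deleted gene gives rise to mature strands named miR-140-5p and miR-140-3p. The sequence of the latter is shown because the study deleted the gene that encodes it, with the seed (bases 2 to 8, the part that pairs with a target) in capitals, read 5′ to 3′ from RefSeq's GRCm38.p6 table, where it lies on the plus strand at chr8:107551288-107551308. Among 1738 mature mouse sequences in that table, 2 carry this seed, and the other is shown beside it.
mmu-miR-140-3p: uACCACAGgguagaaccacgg
mmu-miR-497b: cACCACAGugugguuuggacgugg
The array measures messenger RNA and carries no probe set for either, so the loss of the microRNA itself could not be read from these values.

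Values are RMA signals on the log2 scale, on which a difference of 1 is a 2-fold difference in signal, and differences are knockout minus wild type. A gene was represented by its brightest probe set and compared if the higher of its array values was 7 or more. This floor was chosen here and does not rest on a measured background. Of the 10 genes, 9 were compared, as were 9897 genes of the whole array, whose median difference was -0.05 and whose central 95% lay between -0.69 and 0.47. None of the 9 differed by 2-fold, a size reached by 1.70% of all genes compared. None of their 21 probe sets above the floor did either, against 2.02% of all such probe sets. At 1.5-fold 1 of the 9 was counted, Smad1, against 5.11% of all genes in either direction and 3.56% in the lower one. The median difference of the 9 was -0.11, with 6 lower and 3 higher in the knockout array. Across all genes 59.2% were lower and 40.0% higher, so the split of the members lay near the background. By their brightest probe sets, the other 8 members stayed within 0.23 of 0. Further probe sets above the floor lay farther out for Smad5 (0.26) and Smad7 (0.39).

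**Figure D1:**
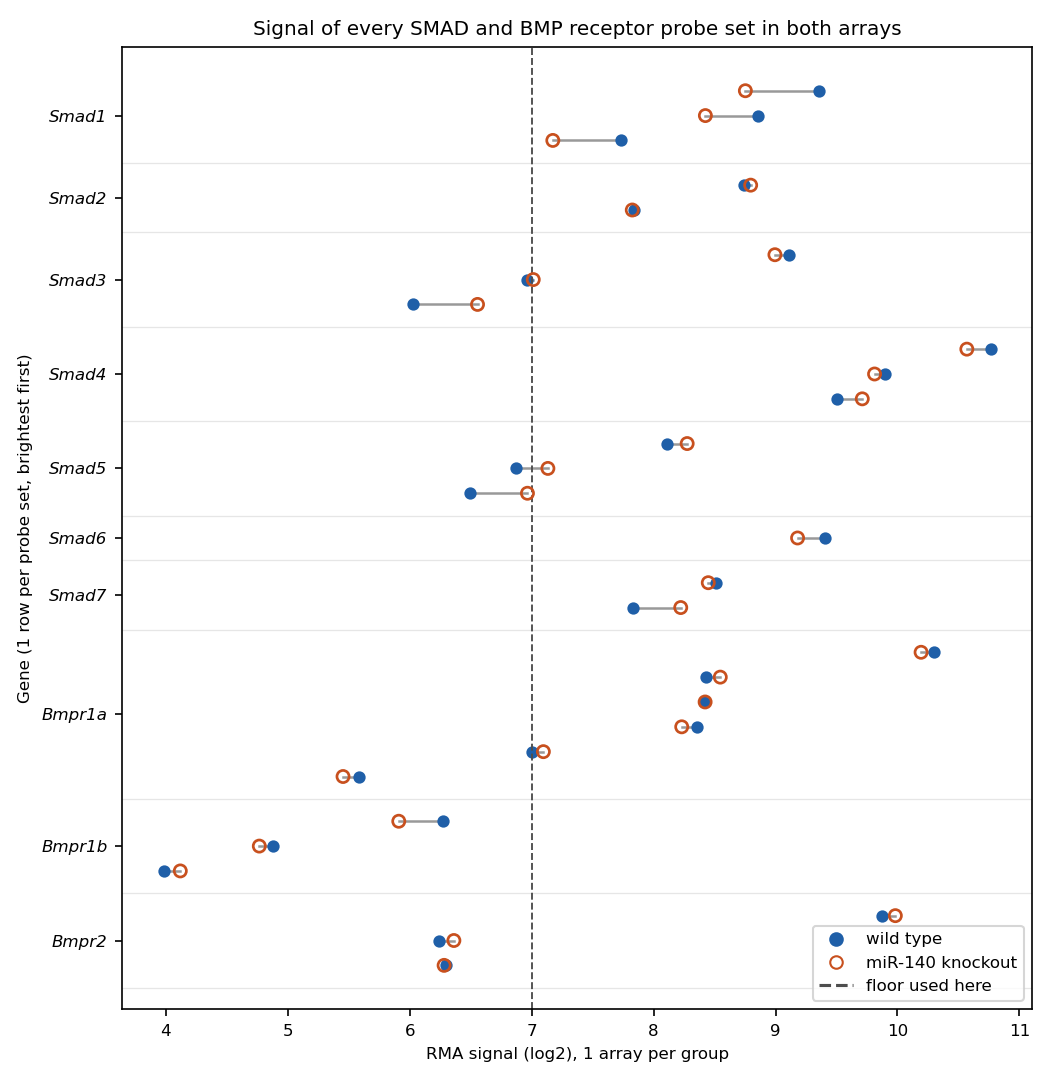
RMA signal on the log2 scale (x axis) of each of the 29 probe sets (rows, grouped by gene), with the wild-type array as filled blue circles, the knockout array as open orange circles and the floor of 7 as a dashed line. All 3 Smad1 probe sets sit to the left in the knockout array and all 3 Smad5 probe sets to the right, while all 3 Bmpr1b probe sets lie under the floor in both arrays.

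Smad1, which carries the BMP signal, stood lower in the knockout array by every probe set. The brightest (1459843_s_at) read 9.36 in wild-type and 8.75 in knockout cells, a difference of -0.60 (1.52-fold lower). The second (1448208_at) read 8.86 and 8.42, a difference of -0.43 (1.35-fold lower). The dimmest (1416081_at) read 7.74 and 7.17, a difference of -0.56 (1.48-fold lower). All 6 readings lay above the floor, and the 3 differences spanned 0.17, whereas the median span over 905 genes with 3 probe sets above the floor was 0.32. Probe sets of a gene share the same RNA and array and are not replicates. Among those 905 genes, 22.9% had all 3 probe sets lower, and 1.55% had all of them lower by at least as much as the smallest Smad1 difference, a cut chosen after the values were seen. Of all genes compared, 3.32% lay at or below the Smad1 difference. The brightest probe set has the suffix that marks probes shared by several transcripts. Without such probe sets the Smad1 difference was -0.43 and averaged over all 3 it was -0.53, and neither reaches 1.5-fold. The difference was also just under 1.5-fold after a further quantile normalization (-0.58) and after centring on signal by lowess (-0.56).

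Smad5, which shares the BMP branch with Smad1, went the other way. Its brightest probe set (1433641_at) read 8.11 in wild-type and 8.28 in knockout cells, a difference of 0.17 (1.12-fold higher). The second (1451873_a_at) read 6.87 and 7.13 (0.26), crossing the floor, and the third (1421047_at) stayed under it at 6.49 and 6.97 (0.47). All 3 were higher, as in 15.7% of compared genes with 3 probe sets at any signal, and a difference at least as far from 0 as that of the brightest was shown by 42.4% of all genes compared. Smad5 thus lay 0.77 above Smad1 in log2 difference, measured as knockout minus wild type for each. The mean of its probe sets gave 0.30. Smad9, the remaining receptor-regulated SMAD of the BMP branch, stayed under the floor in both arrays at 5.40 and 5.43.

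In the TGF-beta branch, the brightest probe sets of Smad2 and Smad3 read almost alike in both arrays. The brightest Smad2 probe set (1420634_a_at) read 8.74 in wild-type and 8.80 in knockout cells (0.06), and the other (1442062_at) read 7.84 and 7.83 (-0.01). For Smad3, the proposed miR-140 target, the brightest probe set (1454960_at) read 9.11 and 8.995, a difference of -0.12 (1.08-fold lower). The second Smad3 probe set (1450472_s_at) read 6.96 and 7.01 (0.06). The third (1450471_at) read 6.03 and 6.56, a difference of 0.53 (1.44-fold higher), but both values lie under the floor. Among probe sets of all genes with a mean signal between 6 and 7, the central 95% of differences ran from -0.55 to 0.59. The shift of 1450471_at lay within this range, but such a width was not particular to dim probe sets. Between 9 and 10 the range ran from -0.65 to 0.64. Because of the 1450471_at shift, the mean of the 3 Smad3 probe sets turned to 0.16. No direction for Smad3 was shared by its probe sets.

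Smad4, the partner common to both branches, had 3 probe sets well above the floor that disagreed in sign. They read 10.76 and 10.57 (1422487_at, -0.20), 9.90 and 9.81 (1422485_at, -0.08), and 9.51 and 9.71 (1422486_a_at, 0.20). The mean of the 3 differed by -0.02. A mixed sign is common on these arrays, since 46.7% of the 3838 genes with 2 or more probe sets above the floor had probe sets on both sides of 0.

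The inhibitory SMADs are themselves induced by the signals they damp. Smad6, which acts mainly on the BMP branch, was measured by 1 probe set (1422771_at) that read 9.41 in wild-type and 9.18 in knockout cells, a difference of -0.23 (1.17-fold lower). A difference at least that far from 0 was shown by 29.8% of all genes compared. Smad7, which acts on both branches, read 8.51 and 8.45 by its brightest probe set (1423389_at, -0.06). Its other probe set (1443771_x_at) read 7.83 and 8.22, a difference of 0.39 (1.31-fold higher), and has the suffix of probes that may bind other transcripts. The Smad7 mean was 0.16, so its sign depended on the probe set taken.

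Bmpr1a, a type I BMP receptor, was covered by 6 probe sets, 5 of which reached the floor. The brightest (1425492_at) read 10.30 in wild-type and 10.19 in knockout cells, a difference of -0.11. The other 4 above the floor read 8.43 and 8.55 (1425493_at, 0.12), 8.41 and 8.42 (1425491_at, 0.01), 8.36 and 8.23 (1425494_s_at, -0.13), and 7.002 and 7.096 (1451729_at, 0.09). The last probe set (1445413_at), under the floor, read 5.59 and 5.45. The 6 differences lay between -0.13 and 0.12 and had no common sign.

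Bmpr1b, another type I BMP receptor, which is known from early cartilage condensations, did not reach the floor with any probe set. Its readings were 6.27 and 5.91 (1437312_at), 4.88 and 4.77 (1422872_at), and 3.98 and 4.12 (1443720_s_at) in the wild-type and knockout arrays. No fold is given, since both arrays lie under the floor, which does not show that the transcript is missing. Bmpr2, a type II receptor that partners both, read 9.87 in wild-type and 9.98 in knockout cells (1434310_at, 0.11, 1.08-fold higher). Its other probe sets lay under the floor at 6.24 and 6.36 (1441652_at) and at 6.30 and 6.28 (1419616_at).

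**Figure D2:**
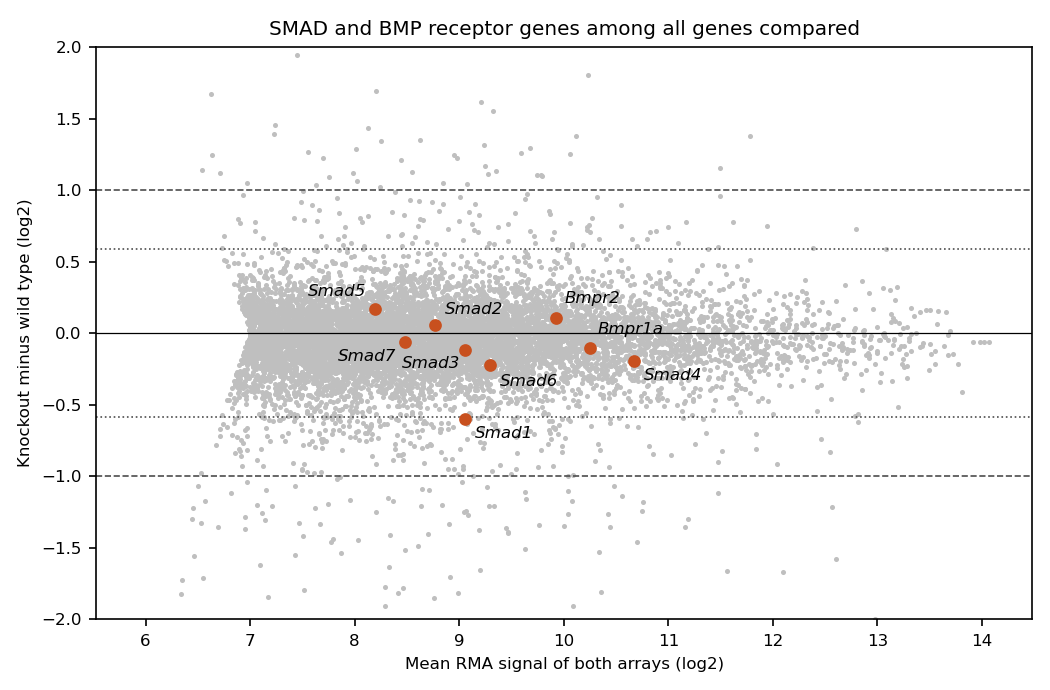
Difference in RMA signal, knockout minus wild type on the log2 scale (y axis), against the mean log2 signal of both arrays (x axis) for the 9897 genes compared (grey, of which 33 lie beyond the axis limits), with the 9 members above the floor in orange. Dashed lines mark 2-fold and dotted lines 1.5-fold; Smad1 (-0.60) lies just past the lower dotted line and the other 8 lie inside both.

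The chondrocyte label was checked against defining markers. Of 18 chondrocyte markers, 17 reached the floor and all 17 were lower in the knockout array, 15 of them by at least 2-fold, where 1.22% of all genes were that much lower. Matn1 was the 1 under the floor. The summed linear signal of all measured markers, those under the floor included, was 80466 in wild-type and 20837 in knockout cells. The sums of the other marker lists were taken alike. Of 18 fibroblast and perichondrium markers, 17 reached the floor, 12 higher and 5 lower, where 40.0% of all genes were higher and 59.2% lower. The median was 0.14 and the summed signal 75811 and 80059, with Thy1 under the floor. Endothelial markers (2 of 8 at the floor, with Pecam1, Cdh5, Tek, Emcn, Vwf and Cldn5 under it) summed to 850 and 744. The brightest of them was Eng at 8.98 and 8.70, which is also listed below as a co-receptor. Leukocyte markers (4 of 8, with Ptprc, Itgam, Lyz2 and Fcgr3 under it) summed to 873 and 900. Skeletal muscle markers (1 of 8, Des) summed to 485 and 512, and osteoblast markers (1 of the 6 measured, Omd at -0.90) to 4134 and 2332. The arrays also differed in sex-linked transcripts. Xist, which silences an X chromosome in female cells, read 7.01 in wild-type and 10.60 in knockout cells. Eif2s3y, Uty and Kdm5d, all on the Y chromosome, read 8.86, 8.17 and 7.75 in wild-type cells and lay under the floor in knockout cells at 4.18, 3.87 and 4.13. The 18S ribosomal RNA probe sets, 3 in number, differed by a median of -0.52, with -0.31 at the 3′ end and -1.28 at the 5′ end. The part of these in the lower Smad1 signal was not tested, and in bulk RNA fewer cells of a type and less RNA per cell cannot be told apart.

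The rest of the pathway was read from lists of 129 further genes, chosen by role with earlier results of these data known. Of these, 120 were measured and 92 reached the floor, 35 higher and 55 lower, with a median of -0.05 against the same -0.05 for all genes. Since 59.2% of all genes were lower and 40.0% higher, this split lay near the background. The same shares are the background for the counts of each list below. A 2-fold higher signal was shown by 1 of the 92 and a 2-fold lower signal by 5, against 0.475% and 1.22% of all genes. Those 5 include Wwp2, the host gene of the deleted microRNA, and Chrdl1, whose knockout value lay under the floor. The marker differences just given hold for the pathway genes too, and the part of those differences was not tested.

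Among the other receptors, 7 of 10 reached the floor, 3 higher and 4 lower. Acvr1b, the activin type I receptor that acts on Smad2 and Smad3, read 9.16 in wild-type and 8.47 in knockout cells, the farthest of them at -0.69 (1.61-fold lower), and by the mean of its probe sets it stood at -0.36. Acvr1, a type I receptor for BMPs, stood at -0.12. Tgfbr1 and Tgfbr2, the TGF-beta receptors, stood at -0.06 and -0.14, but a second Tgfbr2 probe set above the floor differed by 1.06. Acvr2a and Acvr2b, type II receptors shared by activins and BMPs, stood at 0.16 and 0.09, and the co-receptor Tgfbr3 at 0.28. Acvrl1, Acvr1c and Amhr2 stayed under the floor. With all probe sets averaged per gene and the floor applied to that average, the median of these receptors moved from -0.06 to 0.23. Of the co-receptors and the pseudoreceptor, 5 of 7 reached the floor, 1 higher and 4 lower. They included the BMP co-receptors Rgma (-0.39, with the knockout value under the floor) and Rgmb (0.22) and the endoglin gene Eng (-0.28), while Bambi, which blocks BMP and TGF-beta receptors, stood at -0.11.

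Of the BMP and GDF ligands, 7 of 13 measured genes reached the floor, 5 higher and 2 lower. Bmp2 read 8.70 in wild-type and 9.60 in knockout cells (0.90, 1.87-fold higher), and Bmp1, a protease that processes procollagen, and Bmp4 stood at 0.22 and 0.18. Of the TGF-beta and activin ligands, 5 of 6 at the floor were lower. Tgfb2 read 11.35 and 10.17 (-1.18, 2.27-fold lower), with its 4 probe sets above the floor between -1.36 and -0.84, and Inhbb, an activin subunit, stood at 0.28 and Tgfb1 at -0.19. Among secreted antagonists, 5 of 9 were higher. Chrdl1, a chordin-like BMP binder, read 8.19 and 6.06 (-2.13, with the knockout value under the floor), Grem1, a BMP antagonist, stood at 0.71 and Crim1, which encodes a membrane protein that binds BMPs, at -0.61.

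Transcripts of proteins that act inside the cell, most of them on SMADs, were grouped by role. Of 16 ubiquitin ligases, enzymes that remove ubiquitin (Usp9x and Usp15) and phosphatases, all at the floor, 11 were lower, 4 higher and 1 equal. Wwp2, the ligase gene that hosts Mir140 in an intron, read 9.65 and 7.13 (-2.52), with its 4 probe sets above the floor between -4.50 and -0.99. The phosphatase gene Ctdspl stood at -0.93 and Ctdsp1 at -0.36. The SMAD ligases Smurf1 and Smurf2 stood at 0.08 and -0.19, and a further Smurf2 probe set at 0.59. Of 12 genes listed as anchors and transport factors, 9 were lower and 3 higher. This list also held Map3k7, the TAK1 kinase gene, and its partners Tab1, Tab2 and Xiap. The farthest were Pmepa1, a TGF-beta-induced inhibitor of Smad2 and Smad3, at 0.68, the TAK1 kinase adaptor Tab2 at -0.41 and the importin gene Ipo7 at 0.24. With all probe sets averaged per gene and the floor applied to that average, the median of the anchors and transport factors turned from -0.11 to 0.08. Of 14 nuclear partners, 8 were lower, 5 higher and 1 equal, and the farthest were the repressors Tgif1 (0.32) and Zeb2 (0.31, with another probe set at -0.52), followed by Mecom (0.28).

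Genes known to respond to the pathway shared no direction. Of 9 BMP-response genes at the floor, 5 were higher and 4 lower, with a median of 0.01. Id4 read 9.77 in wild-type and 8.06 in knockout cells (-1.70, 3.26-fold lower), with its 3 probe sets between -1.70 and -0.86, while Id1, the textbook readout of Smad1 and Smad5, stood at 0.38, Id2 at -0.37 and Id3 at 0.03. Of 7 TGF-beta-response genes, 3 were higher and 4 lower, with a median of -0.01. Tgfbi read 8.54 and 10.09 (1.55, 2.93-fold higher), Lmcd1 9.04 and 7.63 (-1.41, 2.66-fold lower), and Ccn2, a matrix-associated growth regulator, stood at -0.51.

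**Figure D3:**
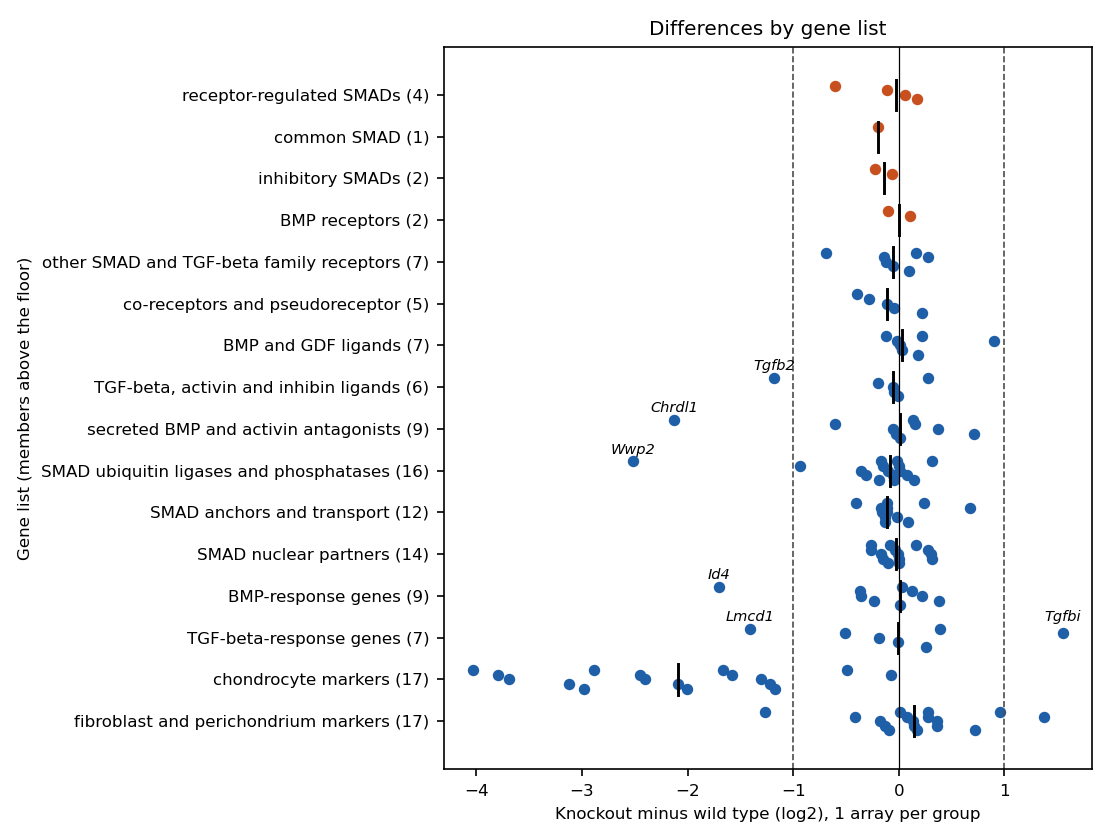
Difference in RMA signal, knockout minus wild type on the log2 scale (x axis), for genes above the floor in each list (rows, number of genes in brackets), with members in orange, other genes in blue, medians as black bars and 2-fold as dashed lines. All 4 member lists lie within 2-fold, whereas the median of the 17 chondrocyte markers is -2.09.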

How the data were processed

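Total RNA of 2 cultures was measured on Affymetrix Mouse Genome 430 2.0 arrays, grouped by sample title. The authors made the deposited log2 signals by Robust Multichip Average, per the labels' design text, in Affymetrix Expression Console 1.1, per the submitters' processing notes. RMA aligns the arrays to a common distribution, so a shift shared by most genes would be removed, and it compresses differences of dim probe sets. The log2 scale was read from the values (3.24 to 14.2).

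Of 45101 probe sets, 64 were controls, 34945 had a single symbol in the platform annotation, 932 several and 9160 were unlisted. By Entrez identifier, 34741 were found in RefSeq's GRCm38.p6 gene table. The brightest probe set by mean signal represented a gene, and the floor was a log2 signal of 7 in the higher array. Described are all members, the other receptors, and up to 3 farthest genes of each further list; Bambi, Smurf1, Smurf2, Id3 and the marker genes beyond that rule were chosen after their values were seen. Members and lists were chosen with earlier results of these data known. Alternatives were 3 scalings, floors of 6 and 8 and none, other probe set choices, low values raised to 7 and a 1.5-fold threshold. Python 3.11.15, pandas 2.3.3 and statsmodels 0.14.6 (lowess span 0.2) were used, and the counting was tested on simulated data. The number of arrays limits the precision. Targets in untranslated regions were not analysed here.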

Additional observations from a re-analysis of the deposited data

How the results depend on the processing

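No paired analysis was possible because each group has 1 array. The count of members past 2-fold was 0 in all 9 planned settings of scaling, floor, probe set choice and low values, and became 1 at a 1.5-fold threshold. The count past 1.5-fold was run over the same settings after the data were seen. It was 1 in 5 of them, namely median centring, the changed or dropped floors and the raising of low values. It was 0 after a further quantile normalization, with lowess centring, with the mean of all probe sets and with probe sets of 1 transcript. The median difference of the members (-0.11) moved to 0.021 with the mean of all probe sets, and in the other 8 settings lay between -0.11 and -0.07. Over 9 members and 9 settings, 76 of 81 differences moved by less than 0.1 and 5 moved more. All 5 came with the choice of probe sets. The size of 0.1 was taken here as no move because there are no replicates. The changed or dropped floors and the raising of low values could not move any of these differences. The brightest probe set of each member lay above all floors used in both arrays. Median centring shifted all members alike. The count of 76 therefore includes differences that these settings could not test. Smad1 stayed lower in all 9 settings (-0.61 to -0.43), Smad5 stayed higher (0.16 to 0.30) and Smad6 lower (-0.23 to -0.18). With 1 probe set, Smad6 could not be moved by the choice of probe sets either. The sign turned in 1 setting each for Smad2 (-0.01 with probe sets of 1 transcript), Smad3 (0.16) and Smad7 (0.16), the latter 2 with the mean of all probe sets.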
